A study of Mus musculus with 27 samples.

Results

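The fibrillar collagen genes examined here are the 9 genes Col1a1, Col1a2, Col3a1, Col5a1, Col5a2, Col5a3, Col11a1, Col24a1 and Col27a1, chosen by name out of the 22855 genes counted in mouse heart. All 9 passed the filter on low counts in both tissues. Fibrillar collagens are made as procollagen chains that wind into rope-like helices in the endoplasmic reticulum, are hydroxylated and trimmed, and assemble outside the cell into the cross-linked fibrils that give the heart wall its tensile strength. Type I collagen is built from the Col1a1 and Col1a2 chains and is stiff, whereas type III, built from Col3a1 alone, makes thinner and more compliant fibrils. Types V (Col5a1, Col5a2, Col5a3) and XI (Col11a1 in this set) lie inside these fibrils, start their assembly and limit their width. Types XXIV and XXVII, encoded by Col24a1 and Col27a1, are further members of the family and are best known from bone and cartilage. Cardiac fibroblasts are the main source of these chains in the heart.

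RNA came from 12 samples of cardiac fibroblasts, sorted by flow cytometry for the surface receptor PDGFRα after atria and valves had been removed, and from 15 samples of whole heart, all from C57Bl/6 mice with no treatment or engineered allele named in the labels. Both tissues were taken from newborn mice on postnatal day 1, from mice of 4 and of 14 weeks, and from old mice of 1 year and of 1.5 years. Whole heart had 3 samples per age, and the fibroblasts had 3 at each of the youngest 2 ages and 2 at each later age, where the methods give 3 sets of fibroblasts. Fibroblast replicates are numbered 1 to 3 at the youngest 2 ages and from 4 to 6 at the later ages. Whole hearts are numbered 1 to 3 at every age. What the numbers stand for is not given in the labels. Libraries held 54615898 to 76758831 counts in fibroblasts and 46091271 to 67984404 in whole heart. The methods give separate animals for the whole hearts and separate fibroblast isolations from different hearts, without the number of hearts in each isolation. According to the paper the fibroblasts were isolated from the same hearts that were sequenced, but the labels do not state which heart belongs to which isolation.

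Several measured facts about the libraries touch the results below. Xist, the RNA of the inactive X chromosome, was at 0.0173 to 0.570 CPM (counts scaled to the size of the library) in every 14-week and 1-year sample of both tissues, where Ddx3y, a gene of the Y chromosome, was at 35.5 to 98.99 CPM. In every 1.5-year sample Ddx3y was at 0.0368 to 0.397 CPM and Xist at 34.8 to 429 CPM, and every sample of the 2 youngest ages held both RNAs, Xist at 6.48 to 589 CPM and Ddx3y at 1.64 to 50.8 CPM. The labels name no sex. Both RNAs were present even in the young whole hearts, for which the methods give separate animals. Whether a young sample held RNA of more than 1 animal is not stated in the labels and was not tested. The n given for these 2 ages counts samples. A change from 4 to 14 weeks, or from any younger age to 1.5 years, cannot be told apart from a difference in the sex of the animals, whereas the 14-week and 1-year samples shared 1 pattern of these genes. The 10 cardiomyocyte markers summed to 777 to 856 CPM in the neonatal fibroblast samples and to 20.2 to 240 CPM at the later ages, against 42675 CPM or more in whole heart. The 8 fibroblast markers (Pdgfra, Tcf21, Ddr2, Dcn, Lum, Dpt, Meox1, Islr) summed to 5190 to 6048 CPM in fibroblasts at postnatal day 1 and to 11682 to 20282 CPM afterwards. In whole heart they summed to 361 to 508 CPM at postnatal day 1 and to 699 to 1189 CPM afterwards, and bulk RNA cannot tell fewer fibroblasts from less RNA per fibroblast.

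Because most of these genes moved together with age, the sequence before their start sites is shown for 4 of them with contrasting promoters. RefSeq promoters (GRCm38.p6, 250 bases before to 50 after the start) were matched by symbol for 7 of the 9 genes, and Col1a1 and Col5a2 had no entry. The 250 bases before the start of Col3a1, the gene with the highest level, of Col5a1, whose profile over age in fibroblasts was nearest to that of Col1a1, and of Col5a3 and Col11a1, the type V and XI chains that parted from it, read as follows, 5′ to 3′, with capitals for each match, on either strand and lying wholly inside the stretch, to the CCAAT box (CCAAT), the core letters of a TATA box (TATAAA) and those of a GC box (GGGCGG).
Col3a1 (chr1:45311288-45311537, plus strand): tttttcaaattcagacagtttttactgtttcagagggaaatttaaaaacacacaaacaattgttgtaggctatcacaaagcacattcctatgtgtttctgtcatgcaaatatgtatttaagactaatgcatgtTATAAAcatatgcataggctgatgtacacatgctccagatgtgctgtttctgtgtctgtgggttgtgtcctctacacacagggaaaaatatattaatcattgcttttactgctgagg
Col5a1 (chr2:27886175-27886424, plus strand): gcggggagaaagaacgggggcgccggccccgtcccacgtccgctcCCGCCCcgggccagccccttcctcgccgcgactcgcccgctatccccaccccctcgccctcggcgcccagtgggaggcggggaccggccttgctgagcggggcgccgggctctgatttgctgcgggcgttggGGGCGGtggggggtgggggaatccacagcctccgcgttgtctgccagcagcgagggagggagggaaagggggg
Col5a3 (chr9:20815068-20815317, minus strand): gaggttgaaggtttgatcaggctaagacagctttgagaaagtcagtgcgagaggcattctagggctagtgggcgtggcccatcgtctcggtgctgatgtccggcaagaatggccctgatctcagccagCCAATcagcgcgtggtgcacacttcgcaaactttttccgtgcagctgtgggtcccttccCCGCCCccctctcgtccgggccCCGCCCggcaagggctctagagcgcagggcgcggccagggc
Col11a1 (chr3:114030290-114030539, plus strand): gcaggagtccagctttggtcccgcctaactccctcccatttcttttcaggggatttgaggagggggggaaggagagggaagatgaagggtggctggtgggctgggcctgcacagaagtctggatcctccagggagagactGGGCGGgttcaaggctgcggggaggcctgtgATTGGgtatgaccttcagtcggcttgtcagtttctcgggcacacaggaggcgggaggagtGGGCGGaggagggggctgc
These promoters differ widely in composition. The 300 bases around the Col3a1 start were 37.7% G or C and held 0 CpG dinucleotides, whereas those of Col5a1 were 75% G or C with 34 CpG, against medians of 52.7% and 7 over 32851 mouse promoters. Col5a3 (63.3%, 20 CpG) and Col11a1 (62.3%, 9 CpG) lay between them. The letters of the GC box occurred in 5 of the 7 windows, all but those of Col3a1 and Col24a1, and in 35.7% of all windows, and a further match of Col5a3 runs across its start site and is therefore not in capitals above. CCAAT occurred in Col11a1, Col1a2 and Col5a3 and in 37.4% of all windows, and the TATA letters in Col3a1 and in 13.6% of all. Of the other elements searched on both strands over the same 300 bases, the letters CAGAC occurred in 5 members (49.6% of all windows), the letters GGAATG in Col3a1 (14.7%) and the letters TGANTCA in none of the 7 (7.81%).

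A short sequence that most of these genes share lies in their messages. The miR-29 family, microRNAs well known for pairing with collagen messages in the heart, has 3 mature members with the same seed (bases 2 to 8, in capitals), taken from RefSeq.
miR-29a-3p: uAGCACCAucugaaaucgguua
miR-29b-3p: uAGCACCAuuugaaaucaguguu
miR-29c-3p: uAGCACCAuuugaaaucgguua
The reverse complement of this seed, TGGTGCT, was found 14 times in the 3′ UTRs of 8 of the 9 members, all but Col1a2, and in 14.9% of the 15245 mouse 3′ UTRs searched (longest protein-coding transcript of each gene, GENCODE M21, GRCm38). Members held 1.06 matches per kilobase against 0.112 over all 3′ UTRs. Col5a1 had 4 matches, Col5a3 had 3 and Col11a1 had 2, and 2 or more occurred in 2.41% of all 3′ UTRs. The 30 bases ending 1 base past the match are given for Col1a1 and Col3a1, the most abundant chains, and for the first match of Col5a1 and of Col5a3. Between postnatal day 1 and 1.5 years Col5a1 fell and Col5a3 rose.
Col1a1 (chr11:94952516-94952545, plus strand): gggtggggtgggaaggaatttcTGGTGCTa
Col3a1 (chr1:45348960-45348989, plus strand): ttccaacttcaaaatgtctcaaTGGTGCTa
Col5a1 (chr2:28037982-28038011, plus strand): atgataaataactatgaacattTGGTGCTg
Col5a3 (chr9:20770780-20770809, minus strand): agggagccccacatgggctcctTGGTGCTg
Levels of the mature microRNAs themselves were not examined here, and the matches are a description of letters only.

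Over the whole span, from newborn mice to those of 1.5 years, the chains of types I and III and the first 2 chains of type V fell in both tissues, Col11a1 and Col24a1 fell almost to 0, and Col5a3 rose. In edgeR's quasi-likelihood test with Benjamini-Hochberg adjustment over all genes, 7 of the 9 members were lower and 1 was higher at 1.5 years than at postnatal day 1 in fibroblasts, where 6.46% of all 18759 genes tested were lower, 9.86% were higher and 16.3% changed. The same counts, 7 lower and 1 higher, were found in whole heart, where 16.3% of 17995 genes were lower, 15.6% were higher and 31.8% changed. The median log2 fold change of the 9 members was −2.33 in fibroblasts, against 0 for all genes, and −1.98 in whole heart, against −0.15 for all genes. All 9 members differed among the 5 ages in fibroblasts (19.9% of all genes did) and 8 did in whole heart (34.3%), the exception there being Col27a1. The count of 8 in each tissue stayed at 8 with any 1 sample left out. No other alternative tried moved it by more than 1.5 times. A minimum of 10 counts in every sample left 8 members tested in fibroblasts and 7 in whole heart. That filter dropped Col24a1 in both tissues and Col11a1 in whole heart, so these calls could not be retested under it.

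**Figure D1:**
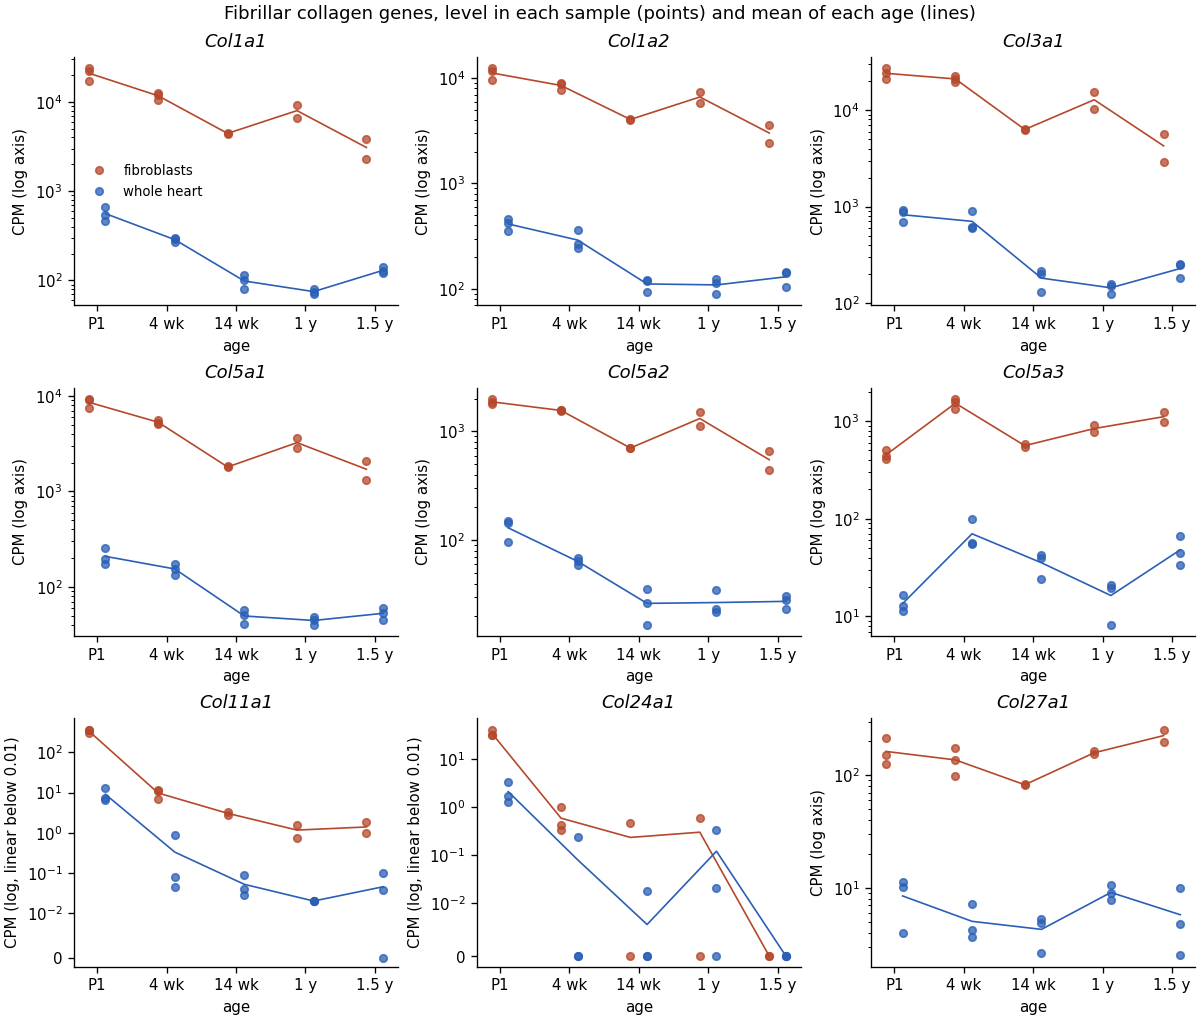
Level of each fibrillar collagen gene in CPM on a log axis (linear below 0.01 CPM for Col11a1 and Col24a1) at 5 ages, postnatal day 1 (P1) being the first and 1.5 years (1.5 y) the last; points are samples and lines join the means, red for PDGFRα fibroblasts and blue for whole heart. The type I, III and V chains other than Col5a3 fall to 14 weeks in both tissues and stand higher again at 1 year in fibroblasts, Col5a3 climbs at 4 weeks, and Col11a1 and Col24a1 drop steeply after postnatal day 1.

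The genes of the abundant fibrils, Col1a1 and Col3a1, show the course in detail. Col1a1 (chr11:94936224-94953042, plus strand, mm10), the major chain of type I, was at 16979, 23824 and 22265 CPM in the 3 neonatal fibroblast samples and at 12102, 12541 and 10501 CPM at 4 weeks. The 14-week samples were at 4362 and 4519 CPM, those of 1 year at 9304 and 6684 CPM, and those of 1.5 years at 3887 and 2286 CPM. The samples of each age therefore stayed apart from those of every other age in fibroblasts, with the lowest level at the oldest age. In whole heart Col1a1 went from 462, 673 and 546 CPM at postnatal day 1 to 267, 290 and 302 CPM at 4 weeks and 102, 79.3 and 115 CPM at 14 weeks. It was lowest there at 1 year (80.6, 73.9 and 70.4 CPM) and at 1.5 years it stood at 127, 141 and 121 CPM, above every 14-week and 1-year sample. Between the first and the last age Col1a1 fell by 2.77 on the log2 scale in fibroblasts (SE 0.25, adjusted p = 8.25e-06, edgeR) and by 2.11 in whole heart (SE 0.16, adjusted p = 9.92e-08, edgeR).

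Col3a1 (chr1:45311538-45349706, plus strand), the chain of type III, held its neonatal level until 4 weeks. Neonatal fibroblast samples were at 21138, 24004 and 27167 CPM and those of 4 weeks at 21241, 22507 and 19434 CPM, 2 sets that overlap. Then came 6426 and 6176 CPM at 14 weeks, 15332 and 10291 CPM at 1 year and 5627 and 2892 CPM at 1.5 years. The whole hearts followed to 14 weeks, with means of 823 ± 119 (SD, n = 3), 702 ± 163 (n = 3) and 181 ± 45.7 CPM (n = 3). The level was then 144 ± 17.7 CPM at 1 year and 228 ± 41.8 CPM at 1.5 years (n = 3 each). Col1a2 (chr6:4504814-4541544, plus strand), the second chain of type I, fell less than Col1a1, from 11236 ± 1485 CPM (n = 3) to 3018 ± 847 CPM (n = 2) in fibroblasts, which is −1.90 on the log2 scale (SE 0.20, adjusted p = 2.57e-05).

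Per kilobase of transcript, Col3a1 had the highest mean level in both tissues and at all ages, at 4332 ± 542 CPM per kilobase in neonatal fibroblasts and 766 ± 348 at 1.5 years, although its samples overlapped those of the next gene in fibroblasts at both of these ages and in whole heart at 1 year. Col1a1 and Col1a2 held the next places, with Col1a1 above Col1a2 beyond the spread at postnatal day 1 (3545 ± 605 against 2101 ± 278) and at 4 weeks, and the pair overlapping at the later ages in fibroblasts. Col5a1 came next in fibroblasts at every age. At 1.5 years its samples there overlapped those of Col5a3 (203 ± 64.4 against 181 ± 32.5 CPM per kilobase), whereas at postnatal day 1 Col5a3 had been at 73.7 ± 8.22 against 1024 ± 120 for Col5a1. In whole heart Col5a3 (7.85 ± 2.69) stood above Col5a1 (6.28 ± 0.923) at 1.5 years, with overlapping samples. The mean of Col27a1 lay between 10.8 and 29.6 CPM per kilobase in fibroblasts, and Col11a1 and Col24a1 were last from 4 weeks on.

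The first step, from postnatal day 1 to 4 weeks, changed 5 of the 9 members in fibroblasts (4 lower, 1 higher), where 15.5% of all genes changed, 6.2% being lower and 9.28% higher. Of the abundant chains Col1a1 and Col5a1 fell there and the others did not pass the test. The log2 values were −0.19 for Col3a1 (SE 0.22, adjusted p = 0.625), −0.40 for Col1a2 and −0.27 for Col5a2, while Col1a1 fell by 0.84 on the log2 scale (adjusted p = 0.0132) and Col5a1 fell by 0.69 (adjusted p = 0.0137). The call of Col5a1 was lost with length and GC offsets, without replicate 3 of postnatal day 1 and without replicate 1 of 4 weeks (adjusted p up to 0.144), and both calls were lost with a 2-fold minimum. In whole heart 4 members changed (3 lower, 1 higher; 18.2% of all genes changed, 6.1% being lower and 12.1% higher), namely Col1a1, Col5a2 and Col11a1 downward and Col5a3 upward. With library size as the only scaling the count in whole heart was 7. That scaling moved the median of all genes at this step from −0.09 to −0.60 on the log2 scale in whole heart, where genes of the mitochondrial genome took 10.8 to 34.5% of counts.

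The second step, from 4 to 14 weeks, was where these genes fell most as a group. In fibroblasts 7 of the 9 were lower at 14 weeks and none was higher, against 2.08% of all genes lower and 3.87% changed, and the members' median log2 fold change was −1.40 against 0 for all genes. Col3a1 fell by 1.74 (SE 0.26, adjusted p = 0.00369), Col5a1 by 1.56 (SE 0.20, adjusted p = 0.00128) and Col5a2 by 1.15, and Col1a1 fell by 1.40 on the log2 scale. In whole heart 5 of the 9 were lower, the type I and III chains with Col5a1 and Col5a2, where 0.85% of all genes were lower and 1.61% changed. Col3a1 fell by 1.95 on the log2 scale there (SE 0.22, adjusted p = 0.0002). At the same step Xist went from 379 to 589 CPM down to 0.0173 to 0.0701 CPM in fibroblasts and from 6.48 to 140 CPM down to 0.125 to 0.414 CPM in whole heart, and the fall of the collagen genes cannot be told apart from a difference in sex. The difference of the fall between fibroblasts and whole heart was tested as the interaction of tissue and age. Of the 9 members 0 passed at this step in edgeR (0.692% of all genes did), with 0 at an unadjusted p under 0.05 (2255 of 20650 genes) and 0 in DESeq2. The fibroblast count rests on 2 samples at 14 weeks, and without replicate 4 or replicate 6 of that age it was 3 and 2. With offsets for transcript length and GC content it was also 3, since Col1a1, Col1a2, Col5a1 and Col5a3 then missed the threshold. The 9 transcripts have a median length of 6625 bases against 2468 over all annotated genes.

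**Figure D2:**
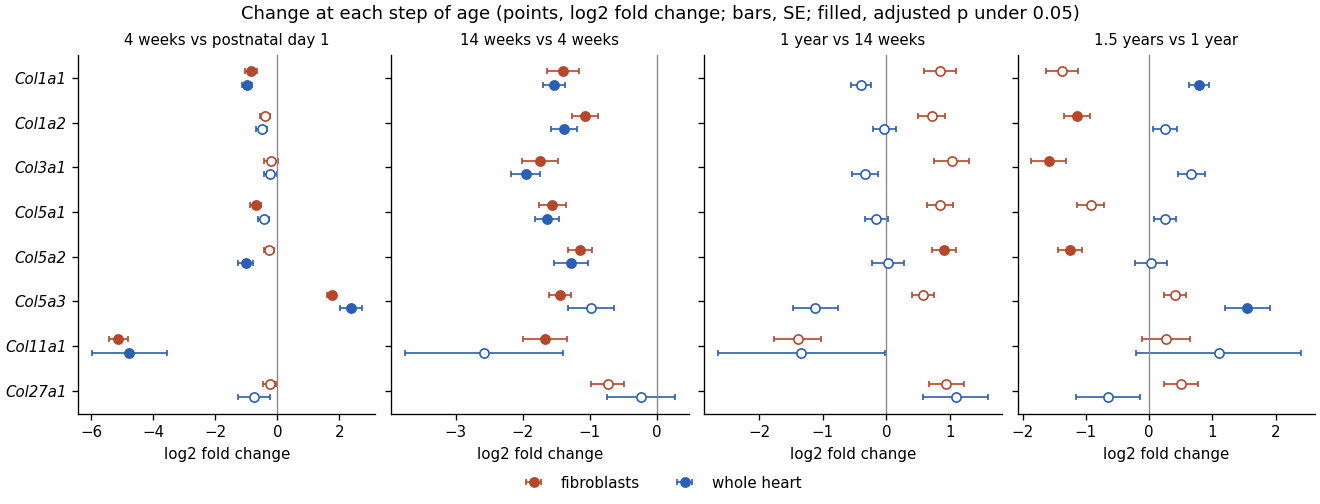
Log2 fold change of 8 fibrillar collagen genes at each step between consecutive ages; points are edgeR estimates, bars are ± 1 SE, filled points passed adjusted p under 0.05, red for fibroblasts and blue for whole heart, and Col24a1 is left out because several groups had no counts. Both tissues lie left of 0 for most genes at the first 2 steps, whereas at the step from 1 year to 1.5 years Col1a1, Col1a2 and Col3a1 lie left of 0 in fibroblasts and right of it in whole heart.

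After 14 weeks the mean levels of the type I and III chains moved in opposite directions in the tissues. Few of these changes were called in edgeR within a tissue, and the step to 1.5 years cannot be told apart from a difference in sex. From 14 weeks to 1 year the fibroblast levels of the type I, III and V chains stood higher in every sample, with log2 differences from 0.58 for Col5a3 to 1.02 for Col3a1. Only Col5a2 passed the test there in edgeR (log2 fold change 0.90, SE 0.19, adjusted p = 0.0332), 1 higher of 9 against 1.31% of all genes higher and 1.78% changed. The count at this step depended on the method: 8 of the 9 had an unadjusted p under 0.05 in edgeR, as did 2299 of all 18759 genes. DESeq2 called 8 (7 higher, 1 lower) and a fit of the 2 ages alone called 7, all higher, but offsets for length and GC content left 0. The shares of all genes called by these alternatives are not given here. Without replicate 4 of 1 year, without either 14-week sample or without replicate 1 of 4 weeks the edgeR count was 0, it was 2 without replicate 3 of 4 weeks, and without either 1.5-year sample it was 4. In whole heart 0 of the 9 changed from 14 weeks to 1 year in edgeR (0.972% of all genes changed), with 3 at an unadjusted p under 0.05 (2531 of 17995 genes) and 1 called by DESeq2. The values for Col1a1 and Col3a1 there were −0.40 (SE 0.16) and −0.33 (SE 0.21).

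From 1 year to 1.5 years the type I and III chains had log2 values below 0 in fibroblasts and above 0 in whole heart, whereas those of Col5a3 were above 0 in both, at 0.40 (adjusted p = 0.726) and 1.55. In fibroblasts Col1a2, Col3a1 and Col5a2 fell by 1.14, 1.59 and 1.26 on the log2 scale (adjusted p = 0.0498, 0.0403 and 0.0214, edgeR), 3 of 9 against 0.144% of all genes lower and 0.24% changed, and Col1a1, at −1.37, had an adjusted p of 0.0542. Without replicate 4 of 1 year or replicate 5 of 1.5 years the count was 0, without replicate 4 of 1.5 years it was 5, and without any 1 of 6 younger samples (postnatal day 1 replicates 2 and 3, 4 weeks replicates 1 and 2, and both of 14 weeks) it was 1. Length and GC offsets gave 0, as did a fit of the 2 ages alone, the replicate block gave 1 and DESeq2 gave 5. Replicate 5 of 1.5 years differed from replicate 4 in its share of mitochondrial counts (7.83% against 2.20%), its endothelial marker sum (1618 against 356 CPM) and its cardiomyocyte marker sum (177 against 32.2 CPM), and the part of these in its lower collagen levels was not tested. In whole heart Col1a1 rose by 0.79 on the log2 scale (SE 0.16, adjusted p = 0.0212) and Col5a3 by 1.55 (SE 0.35, adjusted p = 0.0339), 2 of 9 against 0.834% of all genes higher and 2.66% changed, and Col3a1 had a value of 0.67 (adjusted p = 0.0942). That count was 0 without replicate 2 or 3 of 1 year or replicate 2 of 1.5 years, and 1 without replicate 1 of 1 year or replicate 3 of 14 weeks. Over all genes with a transcript length, the log2 fold change at this step had a Spearman correlation with length of −0.29 in whole heart (17386 genes) and 0.04 in fibroblasts (18073 genes), a description across genes that are not independent.

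Since the opposite movement had been seen first, the interaction of tissue and age for the adult steps was added afterwards and is not independent of that observation. From 1 year to 1.5 years the change in fibroblasts minus that in whole heart was −2.23 for Col1a1 (SE 0.32, adjusted p = 0.00295), −2.32 for Col3a1 (SE 0.39, adjusted p = 0.0158) and −1.46 for Col1a2 (SE 0.31, adjusted p = 0.0436), the 3 members called, where 0.324% of 20650 genes passed. From 14 weeks to 1 year the difference was 1.30 for Col1a1 (SE 0.32, adjusted p = 0.0348), the only member called in edgeR, where 1.72% of all genes passed. DESeq2 called 5 members at the later step and 4 at the earlier one, and the shares of all genes it called are not given here. Of 33 alternatives at the later step the call of Col1a1 was lost under 0, that of Col3a1 under 2 and that of Col1a2 under 15, library size as the only scaling and the replicate block among the 15 (adjusted p up to 0.272). Length and GC offsets and a fit of the 2 ages alone were not among the 33. Each of these left 0 calls at this step in fibroblasts alone. The call at the earlier step was lost with library size as the only scaling, without either 14-week fibroblast sample, fibroblast replicate 4 of 1 year, whole heart replicate 1 or 3 of 14 weeks or any whole heart of 1 year, and leaving out other single samples gave up to 4 calls. Without fibroblast replicate 4 of 1 year or replicate 5 of 1.5 years 1 member remained called at the later step, Col1a1. Over the whole span 0 of the 9 members differed between tissues in edgeR (13.6% of all genes did), with 1 at an unadjusted p under 0.05 (5742 of 20650 genes) and 2 in DESeq2, and 2 passed without fibroblast replicate 4 of 1.5 years. Again 0 did from postnatal day 1 to 4 weeks (7.14%), with 1 at an unadjusted p under 0.05 (4409 of 20650 genes) and 0 in DESeq2.

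Compared across the adult ages as a whole, from 14 weeks to 1.5 years, the fibroblasts showed 2 higher members and none lower, against 1.91% of all genes higher and 2.72% changed. These were Col27a1 (log2 fold change 1.45, SE 0.27, adjusted p = 0.0146) and Col5a3 (0.98, SE 0.18, adjusted p = 0.0118). Both calls were lost with length and GC offsets and without either 14-week sample, and without replicate 4 of 1.5 years the only member called was Col3a1, which was lower. In whole heart 0 changed over this interval in edgeR (12.8% of all genes changed), 1 had an unadjusted p under 0.05 (5054 of 17995 genes did) and DESeq2 called 1. With length and GC offsets Col1a1, Col3a1 and Col5a1 were higher there, at 0.68, 0.66 and 0.52 on the log2 scale (adjusted p = 0.00817, 0.0430 and 0.0200). Over this interval the log2 fold change of all genes in whole heart had a Spearman correlation of −0.39 with transcript length.

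Col5a3 (chr9:20770050-20815067, minus strand), the third and least studied chain of type V, was the member that rose. In fibroblasts it was at 505, 405 and 444 CPM at postnatal day 1 and at 1683, 1551 and 1332 CPM at 4 weeks, and in whole heart at 11.5, 16.4 and 12.8 CPM and then at 98.4, 56.5 and 55.4 CPM. The ages do not overlap in either tissue. The log2 fold change was 1.75 in fibroblasts (SE 0.15, adjusted p = 4.95e-06) and 2.37 in whole heart (SE 0.36, adjusted p = 0.000162). At 14 weeks the fibroblast samples had come back to 537 and 583 CPM, and they then stood at 907 and 769 CPM at 1 year and 1248 and 967 CPM at 1.5 years. Whole heart held 24.1 to 42.1 CPM at 14 weeks, 8.22 to 21.2 CPM at 1 year and 33.9 to 66.1 CPM at 1.5 years. Across the full span the value was 1.30 (SE 0.16, adjusted p = 8.1e-05) in fibroblasts and 1.83 (SE 0.35, adjusted p = 0.000835) in whole heart.

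Col5a1 (chr2:27886425-28039514, plus strand) and Col5a2 (chr1:45374321-45503282, minus strand), the chains of the common form of type V, kept to the course of type I. Col5a1 was at 8609 ± 1012 CPM at postnatal day 1 (n = 3), 1806 ± 28.7 at 14 weeks (n = 2) and 1709 ± 542 at 1.5 years (n = 2) in fibroblasts, and Col5a2 was at 1874 ± 106, 704 ± 0.392 and 550 ± 156 CPM. In whole heart Col5a1 fell from 209 ± 40.7 to 52.8 ± 7.76 CPM and Col5a2 from 130 ± 28.5 to 27.4 ± 3.88 CPM (n = 3 each). The antisense genes 2810430I11Rik and Gm13372 overlap Col5a1, with at most 1662 and 488 counts in a sample, and whether the counting used strand is not given in the sources used here.

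Col11a1 (chr3:114030540-114220718, plus strand), the type XI chain, which can replace a type V chain in fibrils and is known from cartilage and developing tissue, dropped steeply after birth. Fibroblast samples held 299, 354 and 365 CPM at postnatal day 1 and 11.7, 10.6 and 6.81 CPM at 4 weeks. They held 2.81 and 3.28 CPM at 14 weeks, then 0.745 and 1.58 CPM at 1 year and 0.959 and 1.82 CPM at the oldest age. Every age up to 14 weeks stands apart from the others, and the last 2 ages overlap. From the summed counts the level at postnatal day 1 was 34.7-fold that at 4 weeks (exact 95% counting interval 33.2 to 36.2) and 240.5-fold that at 1.5 years (207 to 280), with intervals that cover counting error only. Whole heart held 6.52 to 13.1 CPM at postnatal day 1, 0.0437 to 0.862 CPM at 4 weeks and 0 to 0.0987 CPM at the adult ages, where the files show 0 to 6 counts per sample. In the 5-age test the adjusted p was 2.23e-08 in fibroblasts and 5.25e-05 in whole heart.

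Col24a1 (chr3:145292472-145552011, plus strand) was measured at a low level, highest in the youngest samples. Neonatal fibroblasts had 32.6, 41.9 and 32.9 CPM (2241 to 2861 counts), 4-week fibroblasts 0.338 to 1.01 CPM (25 to 75 counts), and at 14 weeks and at 1 year 1 sample of each pair had no count while the other had 27 and 42. Both 1.5-year fibroblast samples and the 3 whole hearts of that age had 0 counts. Taking 3 counts per library as the limit that a count of 0 allows, the level at 1.5 years was at least 746-fold lower than at postnatal day 1 in fibroblasts and at least 41.6-fold lower in whole heart, where neonatal samples held 1.30 to 3.31 CPM. Its adjusted p from the first to the last age was 0.00209 in fibroblasts and 0.0180 in whole heart.

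Col27a1 (chr4:63214004-63334991, plus strand) was lowest at 14 weeks in fibroblasts and was not called between the first and the last age. Neonatal fibroblasts had 212, 151 and 125 CPM, those of 4 weeks 174, 138 and 98.9 CPM, and those of 14 weeks 83.4 and 81.5 CPM. The older samples had 154 and 163 CPM at 1 year and 254 and 196 CPM at 1.5 years. The first and the last age overlap, and their difference on the log2 scale was 0.47 (SE 0.24, adjusted p = 0.224, edgeR). The 14-week samples were the lowest of all 12 and the 5-age test gave an adjusted p of 0.0181, a pattern unlike that of the other members. In whole heart the samples ranged from 2.53 to 11.3 CPM (adjusted p = 0.297 among the ages), and those of 1 year (7.77, 10.6 and 9.08 CPM) lay above every sample of 4 and 14 weeks and overlapped the others. That difference from 14 weeks was 1.09 on the log2 scale (adjusted p = 0.351, and 0.0489 in a fit of the 2 ages alone). The remaining genes of the family, Col2a1 and Col11a2, were low: Col2a1, the cartilage collagen, lay between 0 and 3.10 CPM in fibroblasts and 0 and 0.762 CPM in whole heart, and Col11a2 between 1.32 and 13.6 and between 0.0477 and 6.71 CPM.

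Together the 9 genes took 7.24 ± 0.817% of all fibroblast counts at postnatal day 1 (n = 3) and 5.03 ± 0.416% at 4 weeks (n = 3). The share was 1.88 ± 0.0160% at 14 weeks, then 3.04 ± 0.622% at 1 year and 1.29 ± 0.447% at the oldest age (n = 2 each). In whole heart their share went from 0.310 ± 0.0529% to 0.158 ± 0.0330%, 0.0430 ± 0.0108%, 0.0375 ± 0.00210% and 0.0588 ± 0.0112% (n = 3 each). Leaving out the genes of the mitochondrial genome the neonatal shares were 7.88% in fibroblasts and 0.353% in whole heart, and those at 1.5 years were 1.35% and 0.0751%. Type V took 16.2 to 17.1% of the 9 genes' fibroblast counts on average at the first 4 ages and 24.5 ± 2.08% at 1.5 years (23.0 and 26.0%), outside the range of the 10 younger samples (15.8 to 17.5%). The share of type III at that age was 29.9 ± 3.46%, with 42.2 ± 0.351% at 4 weeks. Within type V, Col5a3 supplied 4.17 ± 0.846% of the counts at postnatal day 1 and 33.3 ± 2.96% at 1.5 years in fibroblasts, and 3.88 ± 0.611% and 36.8 ± 4.62% in whole heart.

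**Figure D3:**
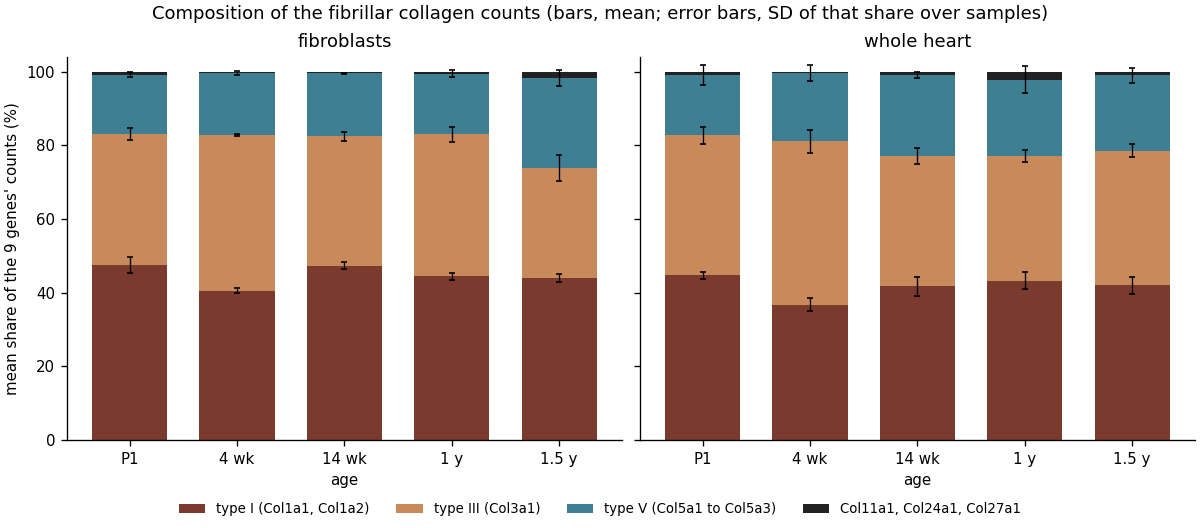
Mean share (%) of the 9 genes' counts taken by type I, type III, type V and the remaining genes at each age in fibroblasts (left) and whole heart (right); error bars are the SD of each share over 2 or 3 samples, drawn at the top of its segment. Type I and type III make up most of each bar, and in fibroblasts the type V segment is widest at 1.5 years, at 24.5%.

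Ratios of 2 genes in the same sample need no scaling for library size. They do not remove effects of transcript length or GC content that differ between samples. Offsets for these were not applied to the ratios. In each tissue 7 ratios were compared between the samples up to 4 weeks and those from 14 weeks on. The comparison was an exact two-sided permutation test, with 0.5 added to each count and p adjusted over the 14 tests. Col1a2/Col1a1 rose in fibroblasts from 0.538 ± 0.0402 in the neonatal samples to 0.729 ± 0.0120 at 4 weeks and 0.914 ± 0.00257 at 14 weeks, and stood at 0.836 ± 0.0537 after 1 year and 0.994 ± 0.0902 after 1.5 years. The difference of the mean log2 ratios was 0.54 (exact permutation p = 0.00216, the smallest that 6 against 6 samples allow, adjusted p = 0.00758), and the younger and older samples did not overlap. In whole heart it was 0.45 (exact permutation p = 0.0116, adjusted p = 0.0203), and without replicate 2 or 3 of postnatal day 1 the adjusted p was 0.0542 and 0.0519. Col5a2/Col5a1 rose likewise in fibroblasts, from 0.220 ± 0.0264 at postnatal day 1 to 0.390 ± 0.00597 at 14 weeks and 0.324 ± 0.0112 at 1.5 years (log2 difference 0.55, exact permutation p = 0.00216, adjusted p = 0.00758). In whole heart the difference of that ratio was 0.09 (adjusted p = 0.719, exact permutation test).

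Col3a1/Col1a1 had its highest value at 4 weeks. In fibroblasts it went from 1.16 ± 0.130 in neonates to 1.80 ± 0.0480 at 4 weeks, and the adult values were 1.42 ± 0.0753 (14 weeks), 1.59 ± 0.0766 (1 year) and 1.36 ± 0.129 (1.5 years). The comparison of younger with older samples gave log2 differences of 0.01 in fibroblasts (adjusted p = 0.948, exact permutation test) and −0.05 in whole heart (adjusted p = 0.803, exact permutation test), because postnatal day 1 and 4 weeks lie on opposite sides. The exact permutation test over the 5 ages gave adjusted p = 0.00104 in fibroblasts and 0.0118 in whole heart. With 4 weeks alone on the younger side the log2 differences were −0.31 and −0.41, both with an adjusted p of 0.0318 (exact permutation test).

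Col5a3/Col5a1 was lowest in neonatal fibroblasts, at 0.0533 ± 0.0125, and highest in those of 1.5 years, at 0.663 ± 0.0936. In between it was 0.286 ± 0.0339 at 4 weeks, 0.310 ± 0.0128 at 14 weeks and 0.259 ± 0.0140 at 1 year. The log2 difference was 1.62 in fibroblasts (adjusted p = 0.0606, exact permutation test) and 1.81 in whole heart (adjusted p = 0.0203, exact permutation test), where the ratio reached 0.894 ± 0.177 at 1.5 years. Over the 5 ages the exact permutation test gave adjusted p = 0.000586 in fibroblasts, and without any 1 of the 4-week samples the comparison of younger with older passed, with an adjusted p as low as 0.0180. The ratio of type V to types I and III had a log2 difference of 0.36 in whole heart (adjusted p = 0.0203, exact permutation test) and of 0.26 in fibroblasts (adjusted p = 0.157, exact permutation test, and 0.0265 without replicate 4 of 1 year). The adjusted p in whole heart was 0.0519 for Col5a3/Col5a1 and 0.0577 for type V without replicate 3 of postnatal day 1. For Col11a1/Col5a1 the log2 difference was −3.44 in fibroblasts (adjusted p = 0.0203, exact permutation test) and −3.02 in whole heart (adjusted p = 0.0357, exact permutation test). Leaving out any 1 of 3 fibroblast samples (both of 1 year, replicate 4 of 1.5 years) or any 1 of 10 whole hearts moved that adjusted p past 0.05, to between 0.0508 and 0.0804. With 4 weeks alone on the younger side this ratio gave −1.21 in fibroblasts and −0.35 in whole heart, and adding 5 to each count gave −1.62 in whole heart, none of which passed. In whole heart Col5a3/Col5a1 (0.43), type V (0.25) and Col1a2/Col1a1 (0.23) likewise did not pass with 4 weeks alone on the younger side.

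Against Pdgfra, the gene of the receptor used for sorting, Col1a1 fell in both tissues. The count ratio Col1a1/Pdgfra in fibroblasts was 25.01 ± 4.86 in neonates, 9.95 ± 1.01 at 4 weeks and 3.46 ± 0.213 at 14 weeks, and it was 6.40 ± 1.36 after 1 year and 2.69 ± 1.02 after 1.5 years. In whole heart, in the same order of ages, it was 17.0 ± 5.68, 6.13 ± 1.74, 2.51 ± 0.319, 2.31 ± 0.0330 and 3.84 ± 0.567. The log2 differences between younger and older samples were −2.03 (exact permutation p = 0.00216, adjusted p = 0.00758) and −1.82 (exact permutation p = 0.0002, the smallest that 6 against 9 samples allow, adjusted p = 0.0028). Pdgfra itself stood at 845 CPM in neonatal and 1151 CPM in 1.5-year fibroblasts on average.

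**Figure D4:**
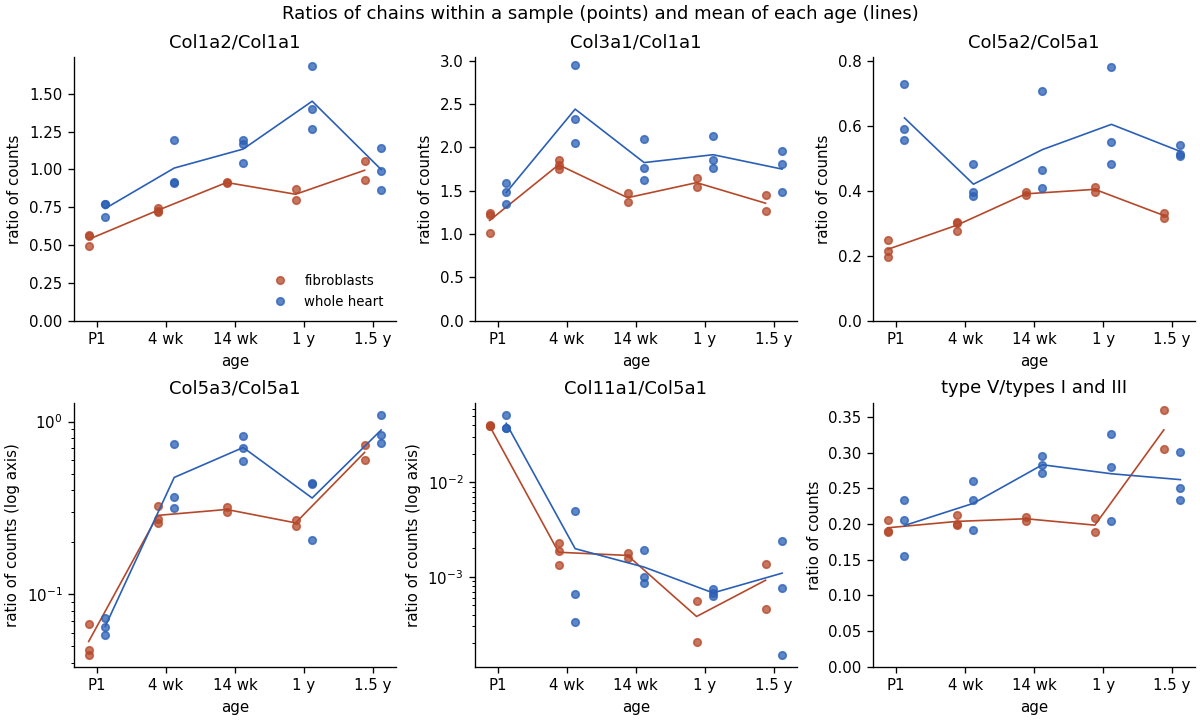
Ratio of the counts of 2 chains, or of type V to types I and III, within each sample (points, 0.5 added to each count) and mean of each age (lines), red for fibroblasts and blue for whole heart; the Col5a3/Col5a1 and Col11a1/Col5a1 panels have log axes. Col1a2/Col1a1 climbs from 0.538 to 0.994 in fibroblasts, Col3a1/Col1a1 peaks at 4 weeks in both tissues, and Col5a3/Col5a1 is lowest at postnatal day 1.

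Averaged over the 5 ages, 8 of the 9 members were higher in the sorted fibroblasts than in whole heart, where 27.7% of all genes were higher and 56.8% differed. The ratio was 35.1-fold for Col1a1, 32.7-fold for Col5a1, 30.9-fold for Col11a1, 27.4-fold for Col3a1 and 18.3-fold for Col27a1, the smallest of the 8 (edgeR, adjusted p at most 6.95e-12). The member not called was Col24a1, which had no counts in either tissue at 1.5 years. By age, the excess of Col1a1 was 29.5-fold at postnatal day 1, 86.5-fold at 1 year and 18.4-fold at 1.5 years, and that of Col3a1 was 23.1-fold, 72.4-fold and 14.5-fold.

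The genes whose profile over the 12 fibroblast samples was nearest to that of Col1a1, by the root-mean-square difference of centred log2 CPM among 8819 genes, were first of all other members: Col5a1 (0.176), Col3a1 (0.253) and Col1a2 (0.328) took ranks 1 to 3 and Col5a2 rank 8, where the profile of Col1a1 itself varied by 1.02. The 5 nearest genes outside the set were Cd276 (0.333), Pxdn (0.347), which encodes a peroxidase that cross-links basement membrane collagen, Gdf11, Ddah1 and H1f0 (0.398). Col5a3 had rank 7293. In whole heart, among 8484 genes and 15 samples, Col3a1, Col5a1, Col1a2 and Col5a2 had ranks 1, 2, 3 and 5, and the 5 nearest outside the set were Tspan18, Fstl1, Itm2a, Loxl2, which encodes a collagen cross-linking oxidase, and Mpzl1 (0.365 to 0.393). Col11a1 was nearest in fibroblasts to Zim1, Igf2, Mest, Nrk and Col26a1 (0.717 to 1.07, own spread 3.18) and in whole heart to Plagl1, Mest, Igf2, H19 and Ncam1 (1.02 to 1.37). Igf2, Mest, Zim1, Plagl1 and H19 are imprinted genes.

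The genes that fold, trim and bind these chains moved in both directions. Of 25 genes for folding and processing, 4 were higher and 6 lower at 1.5 years than at postnatal day 1 in fibroblasts, with a median log2 fold change of −0.20 against 0 for all genes, and the counts in whole heart were the same, with a median of −0.20 against −0.15. Set beside these 10 of 25, 16.3% of all genes changed between these ages in fibroblasts and 31.8% in whole heart, the background for the lists that follow as well. Named by the size of their change in fibroblasts, Pcolce2, an enhancer of procollagen C-proteinase, rose from 5.46 ± 5.08 to 375 ± 38.8 CPM (log2 fold change 6.10, adjusted p = 0.000359, edgeR). P4ha3, a prolyl 4-hydroxylase subunit, fell from 52.3 ± 9.84 to 1.84 ± 0.988 CPM and Adamts14, a procollagen N-proteinase, from 188 ± 39.5 to 20.3 ± 3.97 CPM. From 4 to 14 weeks 4 of the 25 were lower and 0 higher in each tissue (2.08% of all genes were lower in fibroblasts and 0.85% in whole heart), and from 14 weeks to 1 year 4 were higher in fibroblasts (1.31% of all genes).

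Of 10 genes for proteins on or beside the fibrils, 4 rose and 4 fell in fibroblasts between the end ages, and 4 rose and 5 fell in whole heart. Those that fell most in fibroblasts were Postn (periostin, from 8188 ± 1912 to 629 ± 286 CPM), Col12a1, a fibril-associated collagen (295 ± 108 to 27.7 ± 11.9 CPM), and Fn1 (fibronectin, 7485 ± 1337 to 734 ± 194 CPM). Among 13 collagen receptors and turnover genes 2 rose and 2 fell in fibroblasts, and 1 rose and 5 fell in whole heart, against the 16.3% and 31.8% of all genes that changed. Itga11, the collagen-binding integrin chain, rose in fibroblasts from 4.204 ± 4.14 to 204 ± 48.6 CPM (log2 fold change 5.60, adjusted p = 7.75e-05, edgeR) and Ddr2, a collagen receptor kinase, from 178 ± 11.7 to 574 ± 35.3 CPM, while Ddr1 fell from 90.3 ± 11.2 to 39.7 ± 6.26 CPM. The neonatal and 1.5-year groups had 3 and 2 fibroblast samples.

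Markers of other cell types were followed between the same ages. In fibroblasts 6 of 8 fibroblast markers rose and 0 fell, led by Dcn, which goes from 2417 ± 255 to 11724 ± 1021 CPM, and Islr, and in whole heart 5 rose and 0 fell. Of 10 cardiomyocyte markers 6 fell and 0 rose in fibroblasts, among them Ttn, Actc1 and Myh6 (259 ± 54.0 to 20.9 ± 25.1 CPM), and 7 rose in whole heart. Macrophage markers numbered 3 lower of 8 in fibroblasts, where C1qb, Csf1r and Cd68 fell, and 8 higher in whole heart. At the step from 4 to 14 weeks 5 of the 8 macrophage markers fell in fibroblasts, where 2.08% of all genes were lower. Their sum went from 309 to 516 CPM to 38.0 to 55.4 CPM over all 8 markers. Of 8 smooth muscle and pericyte markers 2 rose and 1 fell in fibroblasts (Myh11 upward, Cspg4 downward among those named) and 2 rose and 3 fell in whole heart. For 9 endothelial markers the counts were 0 in either direction in fibroblasts, with sums of 486 to 737 CPM at postnatal day 1 and of 356 and 1618 CPM in the 1.5-year pair, and 2 higher and 1 lower in whole heart. The 4 mesothelial markers tested gave 0 in fibroblasts, and of 5 in whole heart 2 fell. Of 8 cartilage, tendon and valve markers tested 2 rose in fibroblasts, Comp (1.72 ± 2.92 to 333 ± 53.7 CPM) and Cnmd, and 1 rose and 1 fell in whole heart. The dividing-cell marker Mki67 was at 162 to 259 CPM in neonatal fibroblasts and at 1.39 to 6.46 CPM from 14 weeks on. The part of these cell types, of cell division and of the animals' sex in the collagen levels was not tested.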

How the data were processed

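RNA sequencing counts per gene were analysed for 12 samples of PDGFRα fibroblasts and 15 of whole heart. The authors deposited whole-number counts per gene for 22855 genes, and the submitters' processing notes name STAR 2.5.3a and mm10. The paper's methods give STAR's own gene counting as the source of the counts, and the annotation and strand setting are not given in the sources used here. All columns were matched to samples by name.

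Each tissue was fitted over its 5 ages in edgeR 4.0.16 (R 4.3.3) with TMM scaling, edgeR's expression filter and the quasi-likelihood test, and p-values were adjusted by Benjamini-Hochberg over all genes, with a threshold of 0.05. Standard errors are the log2 fold change divided by the root of the F statistic. A joint fit of both tissues gave the tissue difference and the interactions, of which those for the adult steps were added after seeing the data. It treated fibroblast and heart samples as independent. CPM values use TMM-scaled library sizes, and values per kilobase use the longest protein-coding transcript of GENCODE M21. Ratios were compared by exact two-sided permutation tests with 0.5 added to each count. The fitting code was tested on simulated data.

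The members and gene lists were chosen with earlier results of these data known. Up to 3 genes per list were named, those with the largest called change between the first and the last age in fibroblasts and at least 10 CPM at either age, and for Col1a1 and Col11a1 the 5 genes of nearest profile. Alternatives were DESeq2 1.42.0, library-size and median-of-ratios scaling, no filter or at least 10 counts, fits of the 2 ages alone, a replicate block, offsets for transcript length and GC content, a 2-fold minimum and leaving out each sample. Offsets, fits of the 2 ages alone and the 2-fold minimum were applied within each tissue only, not to the joint fit or the ratios.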

Additional observations from a re-analysis of the deposited data

Results flagged for a closer look

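In 4 cases the change of a member over an adult step differed between the tissues by the interaction test of edgeR, which was added after the opposite directions had been seen. From 14 weeks to 1 year the change in fibroblasts minus that in whole heart was 1.30 on the log2 scale for Col1a1. From 1 year to 1.5 years the same difference reached −2.32 in Col3a1, −2.23 in Col1a1 and −1.46 in Col1a2. Each rests on 2 fibroblast samples per adult age, and the sex of the animals cannot be told apart from age at the later step. None of the 4 was fitted with length and GC offsets.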

How the results depend on the processing

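Of 57 called changes of single members, 34 kept their call under every alternative in which the gene was tested and 23 lost it under at least 1. Of the uncalled ones 32 gained a call, and 0 reversed with a call. Counts of members changed moved as follows, and the shares of all genes called under these alternatives are not given here. DESeq2 gave 8 for 1 year against 14 weeks and 5 for 1.5 years against 1 year in fibroblasts, 1 for each of 1 year and 1.5 years against 14 weeks in whole heart, and 2, 4 and 5 for the interactions of the whole span, of 1 year against 14 weeks and of 1.5 years against 1 year. Library size alone gave 0 for 1 year against 14 weeks in fibroblasts, 7 for 4 weeks against postnatal day 1 in whole heart, and 1 and 0 for the interactions of 4 weeks against postnatal day 1 and of 1 year against 14 weeks. Median-of-ratios scaling gave 1 for the interaction of the whole span. No filter gave 3 for 1 year against 14 weeks in fibroblasts. A minimum of 10 counts gave 4 there, 1 for 1.5 years against 14 weeks in whole heart, and 3 and 5 for the adult interactions. Fits of the 2 ages alone gave 7 for 1 year against 14 weeks and 0 for 1.5 years against 1 year in fibroblasts, and 1 and 0 in whole heart. Length and GC offsets gave 3 for 14 weeks against 4 weeks and 0 for each adult step in fibroblasts, and 3 for 1.5 years against 14 weeks in whole heart. A 2-fold minimum gave 3, 0 and 1 for 4 weeks against postnatal day 1, 1 year against 14 weeks and 1.5 years against 14 weeks in fibroblasts, and 1 for 1.5 years against 1 year in whole heart. The cause of these moves was not tested.

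Same-numbered samples mostly did not deviate together (correlations −0.15 to 0.28, with no set of 3 pairs all above 0.1). The exception was the set of 2 pairs, fibroblasts of 1 year and of 1.5 years, at 0.14. The numbers were not taken as pairs in the main fits. With the replicate block 1 member was called for 1.5 years against 1 year in each tissue. With the block and offsets it was 0 in fibroblasts, and 2 for 1.5 years against 14 weeks in whole heart. All other counts of changed members that were fitted with the block stayed within 1.5 times. In fibroblasts the block was fitted only to the step between the youngest 2 ages and that from 1 year to 1.5 years. Other pairs of fibroblast ages shared fewer than 2 replicate numbers, so the block could not show whether their counts hold.

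Leaving out 1 sample gave, for the fibroblast steps in the order 4 weeks against postnatal day 1, 14 weeks against 4 weeks, 1 year against 14 weeks, 1.5 years against 14 weeks, 1.5 years against 1 year and the whole span, 4 to 5, 2 to 8, 0 to 4, 0 to 2, 0 to 5 and 8 to 8 members, and 8 to 9 among the ages. Whole heart gave 3 to 5, 4 to 5, 0 to 0, 0 to 0, 0 to 2, 8 to 8 and 7 to 8. The interactions gave 0 to 0 for both early steps, 0 to 2 for the whole span, 0 to 4 for 1 year against 14 weeks and 1 to 4 for 1.5 years against 1 year, and the tissue difference 8 to 8.

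The log2 ratio differences ranged, with 1 sample left out, over 0.47 to 0.59 (Col1a2/Col1a1), −0.09 to 0.08 (Col3a1/Col1a1), 0.48 to 0.60 (Col5a2/Col5a1), 1.33 to 1.90 (Col5a3/Col5a1), 0.14 to 0.33 (type V), −3.98 to −2.99 (Col11a1/Col5a1) and −2.22 to −1.83 (Col1a1/Pdgfra) in fibroblasts, and over 0.38 to 0.54, −0.15 to 0.08, 0.0035 to 0.19, 1.51 to 2.24, 0.27 to 0.42, −3.88 to −2.43 and −2.02 to −1.59 in whole heart. With 4 weeks alone as the younger group, Col3a1/Col1a1 turned to −0.31 in fibroblasts and was −0.41 in whole heart. Col11a1/Col5a1 was −1.21 in fibroblasts and −0.35 in whole heart, and in whole heart Col1a2/Col1a1 was 0.23, Col5a3/Col5a1 0.43 and type V 0.25, none of these 5 past the threshold. Adding 5 counts gave −1.62 for Col11a1/Col5a1 in whole heart. The exact test over the 5 ages, which keeps the differences, passed for Col3a1/Col1a1 (0.011 and −0.053), for Col5a3/Col5a1 (1.62) and type V (0.26) in fibroblasts, and missed for type V in whole heart (0.36).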
